A study of Caenorhabditis elegans with 5 samples.

Results

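GRTS loci are the regions of the C. elegans genome at which germline nuclear RNAi holds transcription down, as listed in earlier work on hrde-1 mutants. In the deposited table of nascent RNA, which covers the genome in windows of 1 kb on build ce6, 191 windows carry the GRTS mark. Every unlisted window within 2 kb of a GRTS window on the same chromosome was taken as a flank, which gave 319 flank windows, 173 of them directly next to a GRTS window and 146 at 2 kb. Windows marked as misannotated were left out, 506 in all, of which 0 were GRTS windows and 2 would have been flanks. The members are therefore 510 of 99764 windows, or 0.511% of them. The windows are given here by coordinate, because a gene annotation of ce6 was not used here.

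The assay was pre-mRNA-seq, in which RNA is recovered from chromatin precipitated with an antibody to the serine 2 phosphorylated form of RNA polymerase II, the form that elongates. Whole young adult hermaphrodites were grown at 19 °C on OP50 bacteria, so germline and somatic nuclei were sampled together. The 5 strains were wild type (WT, strain N2), set-32(ok1457), the double mutant of met-2(n4256) with set-25(ok5021), the triple mutant that carries all of these alleles, and hrde-1(tm1200), each with 1 library. There were no replicates, so no p-value is given, and the intervals below are exact 95% intervals on reads that cover counting error only. In whole animals, fewer cells that transcribe a locus and less RNA per cell cannot be told apart.

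In germline nuclear RNAi, small interfering RNAs guide the Argonaute protein HRDE-1 into the nucleus, where transcription of the matching locus is repressed and histone H3 is methylated at lysine 9 (H3K9me3). Many native targets are LTR retrotransposons and other repeated sequence. The other 3 mutant strains lack histone methyltransferases (HMTs), namely SET-32, MET-2 with SET-25, or all of these. They are required to different degrees for H3K9me3, so the strains set loss of the Argonaute beside loss of the mark.

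Depth differed between libraries. The value of 1 read in a window, recovered from the steps of the RPKM values, was 0.912 RPKM for WT and 1.47 for hrde-1, with 1.49 for met-2 set-25, 1.8 for set-32 and 3.09 for the triple mutant, which corresponds to between 323825 and 1096417 reads a library. The rRNA genes at the right end of chromosome I took 4.67% to 8.97% of the values in hrde-1, met-2 set-25 and WT, but 28.1% in set-32 and 37.7% in the triple mutant. Those last 2 libraries carry another library code than the other 3, so for them the set of libraries and the genotype cannot be told apart. The median log2 ratio to WT was taken over windows in no list and without a loss mark, whose mean over the 5 libraries reached 5 RPKM. It was -0.54 in set-32, -0.86 in the triple mutant, -0.12 in hrde-1 and -0.01 in met-2 set-25. For set-32 and the triple mutant, values are given as deposited and also after rescaling to a median ratio of 1 at those windows.

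GRTS windows lay in few and mostly short runs. The 191 windows formed 94 runs of adjacent windows, of which 59 were 1 window, 18 were 2 windows and 17 were 3 windows or more, up to 14. The 17 longer runs held 96 of the windows, and the 5 runs of at least 7 windows held 51. When GRTS windows up to 2 kb apart were joined, 76 clusters remained and the longest spanned 19 kb.

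The runs were spread unevenly over the chromosomes. Chromosome V held 84 GRTS windows, 44% of the list against 20.8% of all windows, and chromosome IV held 39. Chromosome II held 31, chromosome I held 27 and chromosome III held 10. The X chromosome held 0 GRTS windows and 0 flanks, although it makes up 17.7% of all windows. On the autosomes, 74.9% of GRTS windows and 77.7% of flanks lay in the outer 30% at either end, against 60% of all autosomal windows. Chromosome V was the exception, with 40 of its 84 windows in the central 40% of its length.

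The level of nascent RNA at GRTS windows was higher in hrde-1 than in WT. The median over the 191 windows was 5.75 RPKM in WT (range 0 to 85.7) and 35.4 RPKM in hrde-1 (range 0 to 575). The hrde-1 library was above WT at 185 windows, below it at 5 and equal at 1, and it was the highest of the 5 libraries at 176 of the 190 windows with any signal. Over the genome, hrde-1 was above WT at 34% of windows and highest at 17.7% of those with any signal. The median ratio, taken after adding 1 RPKM to both values, was 4.76 with quartiles of 2.88 and 8.62, against 1 over all windows. The ratio of the summed levels was 5.96 (5.68 to 6.26). Because the list was drawn from earlier hrde-1 mutants, these values describe the list and are not independent evidence of its direction.

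A window was called higher or lower at a ratio of 2 or more, provided that its larger value reached 20 RPKM. By this rule 128 GRTS windows were called higher in hrde-1 and 0 lower, where 0.749% of all windows were called higher and 1.1% lower. Only 135 GRTS windows reached 20 RPKM in either library, so 128 of these 135 were called. A ratio of at least 4 called 94 GRTS windows, against 0.18% of all windows. With the larger value at 10 RPKM or more, 154 were called, against 1.88% of all windows. After rescaling, 130 GRTS windows and 79 flanks were called higher and 0 and 1 lower, where 1.08% of all windows were called higher and 0.799% lower.

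**Figure D1:**
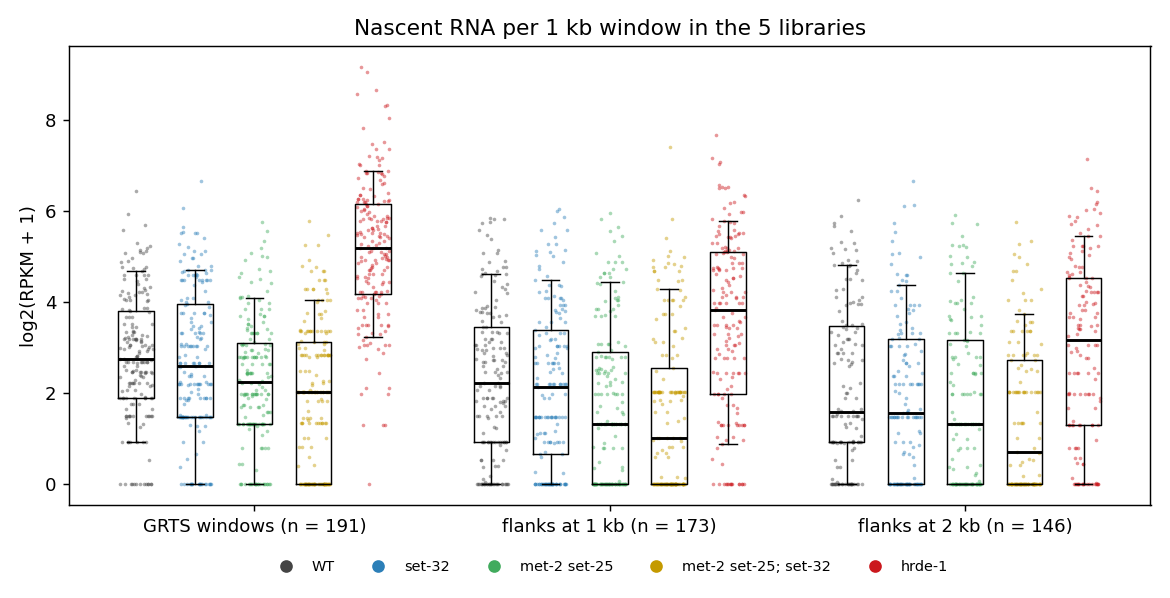
Nascent RNA as log2(RPKM + 1) in each of the 5 libraries for GRTS windows and for flanks at 1 kb and 2 kb. Points are windows, boxes give the median and quartiles, and whiskers reach the 10th and 90th percentiles. The hrde-1 median was 35.4 RPKM at GRTS windows, 13.3 at 1 kb and 7.99 at 2 kb, and the medians of the other libraries stayed at or below 5.75 RPKM.

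Nascent RNA in hrde-1 was also higher in the flanks, which no list holds as GRTS. The median over the 319 flank windows was 3.01 RPKM for WT and 10.3 RPKM for hrde-1. The hrde-1 library was above WT at 249 flank windows (78.1%, against 34% of all windows) and below it at 51 (16%, against 41.9%). The median ratio was 1.95, with quartiles of 1.12 and 3.44, and the ratio of the summed levels was 2.36 (2.26 to 2.48). By the call rule 68 flanks were higher (21.3%, against the 0.749% of all windows) and 1 was lower. At a ratio of at least 4 the count of flanks was 31, and with the larger value at 10 RPKM or more it was 109.

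The excess over WT became smaller with distance from the target. At 1 kb the median ratio of hrde-1 to WT was 2.27 and 52 of 173 windows were called higher (30.1%). At 2 kb it was 1.74, with 16 of 146 windows called (11%), and at 3 kb it was 1.29, with 9 of 128 called (7.03%). The summed ratio was 2.77 (2.6 to 2.94) at 1 kb, 1.89 (1.76 to 2.03) at 2 kb, 1.47 (1.37 to 1.57) at 3 kb, 1.25 (1.16 to 1.35) at 4 kb and 1.19 (1.1 to 1.28) at 5 kb. The median ratio was 1 at 4 kb and 1.03 at 5 kb. There hrde-1 was above WT at 45.5% and 50.8% of windows, against 33.6% beyond 10 kb. The share called higher was 5.69% at 4 kb and 7.38% at 5 kb, and lay between 1.65% and 3.33% from 6 to 10 kb. At each distance from 6 to 10 kb the interval of the summed ratio held 1. Taking the mean excess of 49.7 RPKM at GRTS windows as 100%, the flanks kept 30.2% of it at 1 kb and 15.4% at 2 kb. Windows at 3 kb kept 12.2%. The list was drawn from earlier hrde-1 mutants and flanks are windows it left out, so the step from GRTS windows to 1 kb is partly set by the listing. Beyond 10 kb, 510 of 98276 windows were called higher, or 0.519%.

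The WT median was also higher at the target, with 5.75, 3.65, 1.99 and 1.82 RPKM at 0, 1, 2 and 3 kb, where the hrde-1 median was 35.4, 13.3, 7.99 and 7.37 RPKM. The WT mean did not follow this order. It was 10 RPKM at GRTS windows, 8.5 at 1 kb, 8.6 at 2 kb and 13 at 3 kb, while the hrde-1 mean was 59.7, 23.5, 16.3 and 19.1 RPKM. The comparison also stood above a common floor of 5 RPKM in WT. Such a floor picks windows by the denominator of the ratio, which by itself lowers it. The sets were not matched in level above it, with WT medians of 10.5 RPKM at GRTS windows, 12.6 at flanks and 15.5 over all windows. Among windows above 5 RPKM in WT, the median ratio of hrde-1 to WT was 3.88 at 109 GRTS windows and 1.86 at 139 flanks, against 0.865 over 35022 windows of the genome. Among those, 36.7% of flanks and 1.87% of all windows were called higher.

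**Figure D2:**
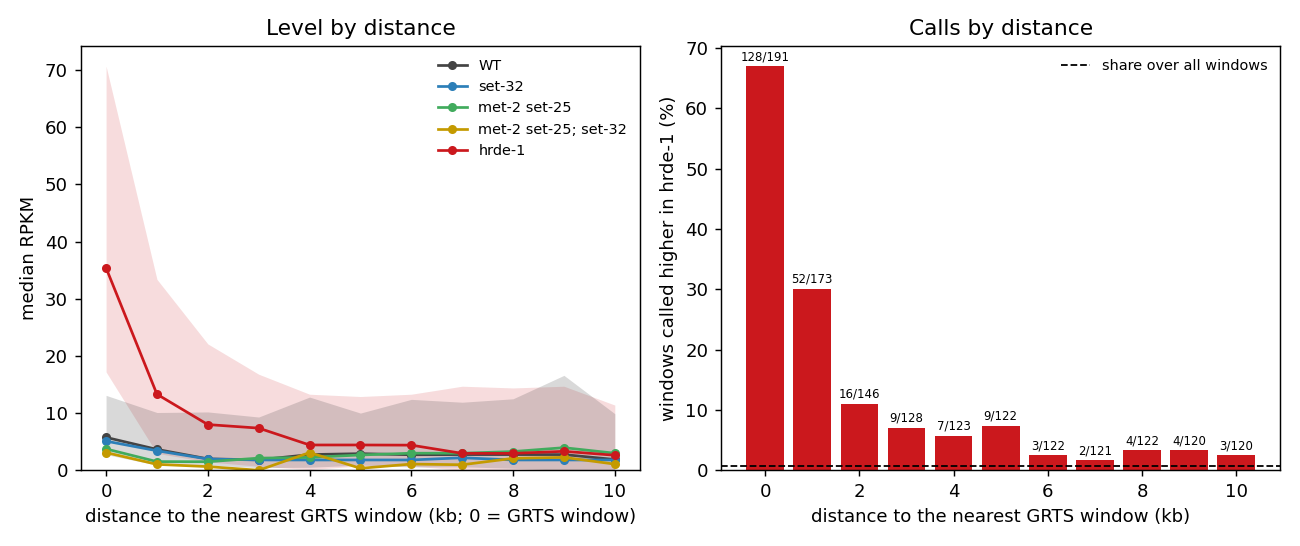
Left, median RPKM of each library against the distance to the nearest GRTS window in kb, with the quartile range shaded for WT and hrde-1. Right, the percentage of windows at each distance that were called higher in hrde-1, with counts above the bars and the share over all windows (0.749%) as a dashed line. The share fell from 67% of GRTS windows to 30.1% at 1 kb and 11% at 2 kb.

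The spread was of similar size at either side of a run. Coordinates give no direction of transcription, since the table does not separate strands. Among flanks outside gaps, 17 of 64 windows at 1 kb on the lower-coordinate side were called higher, and 17 of 65 on the other side. At 2 kb the counts were 6 of 65 and 5 of 64. Flanks in gaps of a cluster, where GRTS windows lie at most 5 kb apart on either side, had a median ratio of 2.84 with 23 of 61 called. The other 258 flanks had a median ratio of 1.84 with 45 called, so the excess was not limited to gaps.

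Whole runs were compared with all flanks within 2 kb of them, so a flank between close runs counted for each of these. In hrde-1 the mean of the flanks was above WT at 87 of the 94 runs, and the mean of the GRTS windows at 91. The median ratio of flank mean to target mean was 0.63 in hrde-1 (quartiles 0.364 and 1.34) and 0.99 in WT (quartiles 0.491 and 2.15, 87 runs with any WT signal in the target). The flank mean exceeded the target mean at 31 runs in hrde-1. Since targets were listed from earlier hrde-1 mutants and flanks were not, a lower flank to target ratio in hrde-1 than in WT is partly set by the listing. Runs with a higher target mean tended to have higher flanks. Spearman's rho over the 94 runs was 0.54 in hrde-1 and 0.58 in WT. It is given as a description because runs share libraries and chromosomes, and some share flanks.

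**Figure D3:**
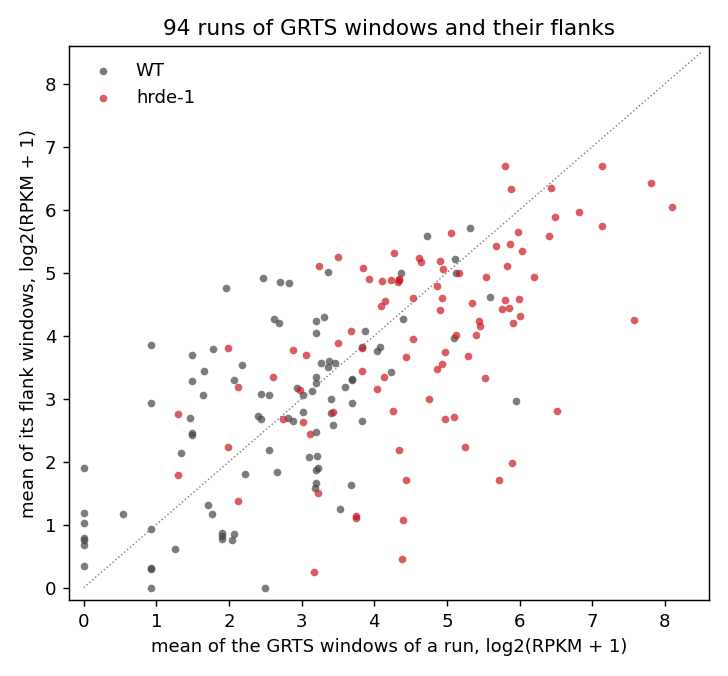
Mean of the flank windows against mean of the GRTS windows for each of the 94 runs, both as log2(RPKM + 1), in WT (grey) and hrde-1 (red). The dotted line marks equal means. In hrde-1, 63 runs lay below the line and 31 above it.

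Run length and position in a run also went with the size of the difference. Runs consist of windows listed from earlier hrde-1 work, so their length and edges are not independent of the difference in hrde-1. Single GRTS windows had a median ratio of hrde-1 to WT of 3.59 and 27 of 59 were called. Windows in runs of 2 to 4 had 4.17 with 41 of 66 called, and windows in runs of 5 or more had 6.98 with 60 of 66 called. In runs of at least 3 windows, the 34 edge windows had a median of 53.1 RPKM in hrde-1 and the 62 interior windows had 68.1 RPKM. In WT the edge and interior medians were 7.3 and 6.61 RPKM, which is in the reverse order.

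Windows that were called higher and lay side by side were joined into stretches to follow single loci past the end of the list. In the genome 49 stretches held a GRTS window, 25 of which also held flanks, and 466 held none, of which 402 were of 1 window. Stretches of 5 windows or more numbered 14, and 13 of them held a GRTS window. The other stretch, 8 windows at chrIV:16831001-16839000, held 0 GRTS windows, 0 flanks and 0 windows of tiers 1 to 3. At 3 loci the stretch ran on past the 2 kb flank, over 13 windows in all.

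The longest stretch was chrV:5180001-5202000, which held 18 GRTS windows and 4 flanks. Its mean was 15.6 RPKM for WT and 107 for hrde-1, with 9.29 for met-2 set-25, 16.3 for set-32 and 6.15 for the triple mutant, a ratio to WT of 6.86 (6.14 to 7.71). It joins the runs chrV:5182001-5186000 and chrV:5187001-5201000 across the flank window chrV:5186001-5187000. That window had 25.5 RPKM for WT and 202 for hrde-1, with 15.7 for met-2 set-25, 42.2 for set-32 and 15.4 for the triple mutant, the highest hrde-1 level of any flank. The highest window of the stretch, chrV:5183001-5184000, had 60.2 RPKM for WT and 402 for hrde-1, with 5.97 for met-2 set-25, 44.9 for set-32 and 12.3 for the triple mutant.

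The values of this stretch fell off towards its right end, where the K9 tier number was higher. The last 6 listed windows lay in tiers 4 and 5, carried 0 loss marks in the triple mutant, and had between 25.1 and 44.2 RPKM in hrde-1 against 2.74 to 5.47 in WT. The flank after them, chrV:5201001-5202000, stood at 0.91 RPKM in WT, against 25.1 in hrde-1, and 0 in the other 3 libraries. The next flank stood at 0 RPKM in WT, against 13.3 in hrde-1, too low to be called. All of these windows held whole reads or 0 reads in every library.

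A pair of long stretches on chromosome V had nearly equal values. The stretch chrV:8825001-8843000 had a mean of 8.61 RPKM for WT and 50.4 for hrde-1, and chrV:8868001-8885000 had 8.86 in WT and 52.8 in hrde-1. Their longest runs, 11 windows each, had 9.6 and 9.82 RPKM for WT and 62.4 and 63.4 for hrde-1, with 4.11 and 4.25 for met-2 set-25, 10.1 and 10.3 for set-32, and 2.48 and 2.68 for the triple mutant. Only 1 of 11 windows in each run held whole reads in all libraries. Reads that match several places were split among them by the authors, so the 2 runs cannot be read as independent loci.

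Chromosome IV held the highest single window. The run chrIV:4124001-4132000 of 8 windows had a mean of 13.3 RPKM for WT and 190 for hrde-1, with 15.2 for met-2 set-25, 17.3 for set-32 and 10.8 for the triple mutant, a ratio of 14.2 (11.7 to 17.4). Its window chrIV:4129001-4130000 reached 575 RPKM in hrde-1 against 32.8 in WT and 53 in met-2 set-25. The level dropped steeply outside the run. The flank before it stood at 2.74 RPKM in WT, against 16.2 in hrde-1, and the flank after it had 5.47 in WT and 17.7 in hrde-1, so neither was called. At 2 kb after the run, between it and the next listed window, the level was 10.9 RPKM for WT and 36.8 for hrde-1.

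The run chrI:4459001-4464000 had the highest mean in hrde-1. It had 19.7 RPKM for WT and 272 for hrde-1, with 11.5 for met-2 set-25, 21.4 for set-32 and 11.7 for the triple mutant, a ratio of 13.8 (11.3 to 17). All 5 of its windows are also GRH loci, the list of windows at which H3K9me3 depends on germline nuclear RNAi. The flank after it, chrI:4464001-4465000, stood at 41 RPKM in WT, against 94.3 in hrde-1, a ratio of 2.3 (1.54 to 3.44). The next flank, also a GRH locus, had 35.6 in WT and 57.5 in hrde-1 and was not called.

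**Figure D4:**
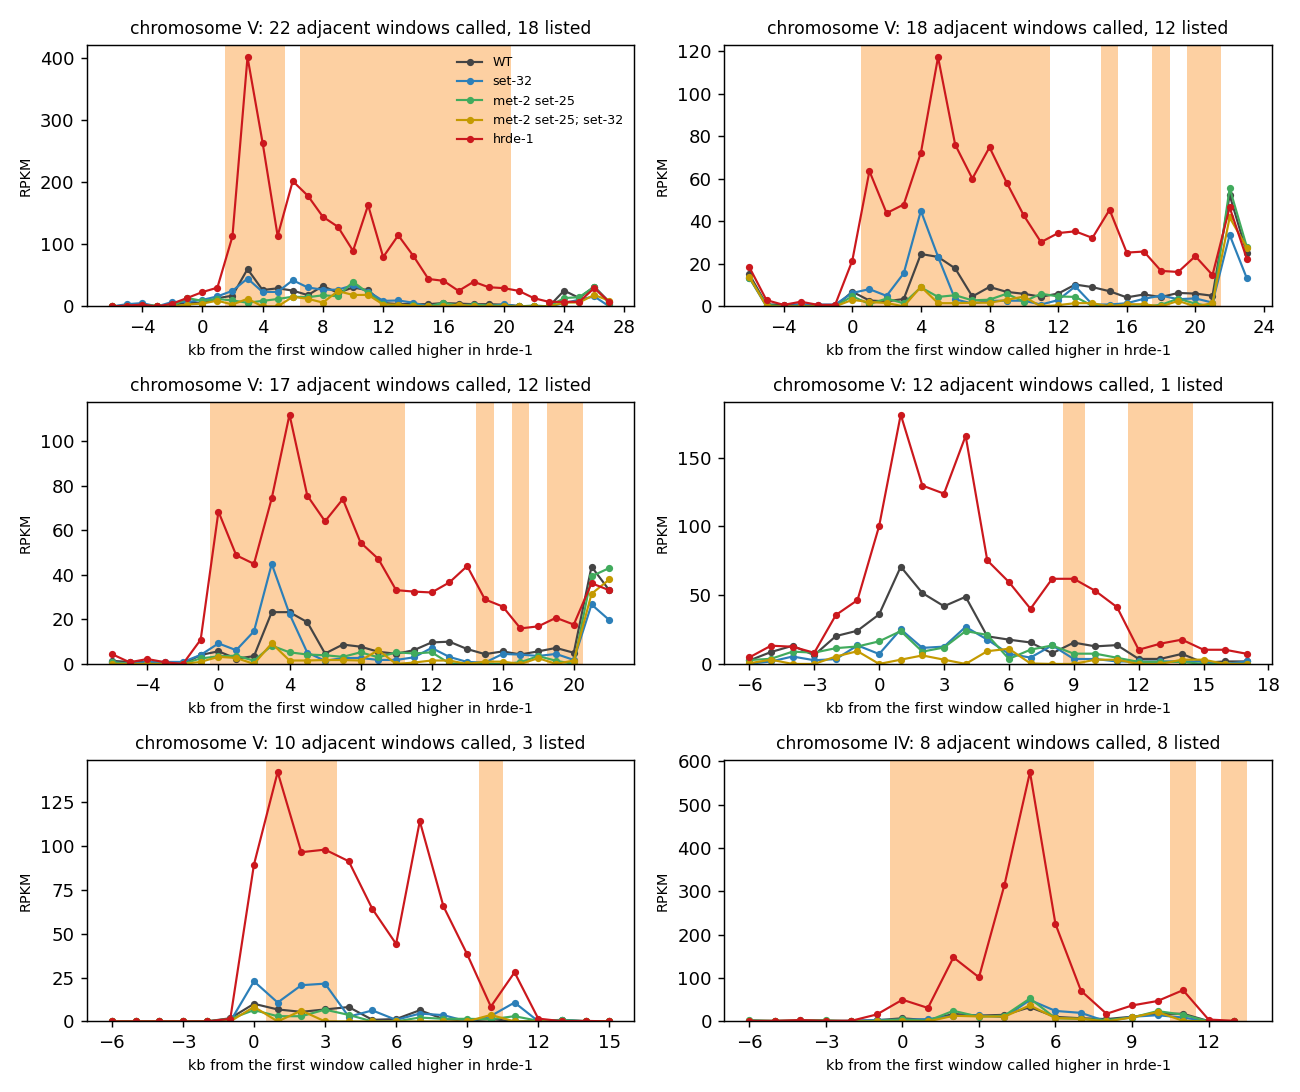
RPKM per 1 kb window in the 5 libraries along the 6 longest stretches of called windows that hold a GRTS window, against the distance in kb from the first window of the stretch. Orange bands mark GRTS windows. The stretches held 22, 18, 17, 12, 10 and 8 windows. The call rule that built them required hrde-1 (red) to be at least 2 times WT after 1 RPKM was added to both.

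At chrV:5473001-5485000 most of the stretch lay outside the list. It held 1 GRTS window, 4 flanks and 7 windows farther out, and had a mean of 29.3 RPKM for WT and 91.1 for hrde-1, with 12.8 for met-2 set-25, 11.3 for set-32 and 3.27 for the triple mutant, a ratio of 3.11 (2.74 to 3.52). Its GRTS window, chrV:5482001-5483000, was not its highest, with 15.5 RPKM in WT and 61.9 in hrde-1. A like pattern was seen at chrI:11055001-11062000, where 1 GRTS window was followed by 2 flanks and 4 farther windows. That stretch had 18.7 RPKM for WT and 59.2 for hrde-1, with 14.7 for met-2 set-25, 21.9 for set-32 and 11.5 for the triple mutant, a ratio of 3.17 (2.57 to 3.88).

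The stretch chrV:20295001-20305000 had the largest ratio of these loci, 17.6 (13.2 to 23.6). It held 3 GRTS windows, 5 flanks and 2 farther windows, with a mean of 4.79 RPKM in WT and 84.4 in hrde-1. Its flanks chrV:20295001-20296000 and chrV:20299001-20300000 had 10.1 and 8.21 RPKM in WT and 89.5 and 91.4 in hrde-1, where the 3 listed windows between them had 96.5 to 142. Of its 10 windows, 0 held whole reads in all libraries.

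A cluster on chromosome II alternated listed and unlisted windows. The run chrII:2156001-2160000 had 38.9 RPKM for WT and 139 for hrde-1, with 26.3 for met-2 set-25, 36.9 for set-32 and 28 for the triple mutant, a ratio of 3.58 (2.97 to 4.3). The flank chrII:2160001-2161000 had 55.6 in WT and 135 in hrde-1, and its WT level was above that of the run beside it. The single window chrII:2154001-2155000 had 47.4 in WT and 139 in hrde-1, a ratio of 2.92 (2.06 to 4.18). The gap windows chrII:2151001-2152000 and chrII:2153001-2154000, to the left of it, were at 0 RPKM in WT and at 60.4 and 33.4 in hrde-1.

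The other long runs had lower levels. The run chrIV:915001-922000 had 8.21 RPKM for WT and 30.5 for hrde-1, with 4.05 for met-2 set-25, 8.21 for set-32 and 3.09 for the triple mutant, a ratio of 3.71 (2.75 to 5.08). The run chrII:2516001-2521000 had 11.1 RPKM for WT and 58.9 for hrde-1, with 14.6 for met-2 set-25, 11.7 for set-32 and 18.5 for the triple mutant, a ratio of 5.31 (3.96 to 7.18). The run chrV:17568001-17573000 stood at 4.65 RPKM in WT, against 37.2 in hrde-1, a ratio of 8 (5.27 to 13.1). Its 4 flanks were at a mean of 0 RPKM in WT and 3.68 in hrde-1, so its high level ended with the list.

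The remaining flanks with high levels in hrde-1 stood beside short runs. The window chrV:15165001-15166000 had 19.1 RPKM for WT and 143 for hrde-1, with 23.9 for met-2 set-25, 18 for set-32 and 21.6 for the triple mutant, a ratio of 7.46 (4.62 to 12.6), and carried 0 loss marks. The window chrII:10940001-10941000 stood at 52.9 RPKM in WT, against 131 in hrde-1, a ratio of 2.48 (1.76 to 3.51). The windows chrI:10784001-10785000, chrII:14143001-14144000 and chrIV:4187001-4188000 had 89.8 to 91.4 RPKM in hrde-1 and ratios of 4.11, 2.78 and 3.09.

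A few members went against the list. The only flank called lower in hrde-1 was chrII:5100001-5101000, with 20.2 RPKM for WT and 6.31 for hrde-1, with 5.97 for met-2 set-25, 31.2 for set-32 and 1.99 for the triple mutant, a ratio of 0.313 (0.0736 to 0.865). Its neighbours chrII:5098001-5099000 and chrII:5099001-5100000, listed as GRTS and GRH, had 35.6 and 85.7 RPKM in WT and 26.5 and 76.6 in hrde-1. Their intervals held a ratio of 1. The other GRTS windows below WT in hrde-1 were chrI:226001-227000, chrI:10488001-10489000 and chrV:16926001-16927000, each at 2.74 to 10 RPKM in WT and with an interval that held 1. The window chrI:11448001-11449000 had 0 reads in all 5 libraries, which allows up to 2.74 RPKM in WT and 4.42 in hrde-1 at the limit of 3 reads.

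H3K9me3 of the windows was read from the marks that the table carries. The K9 tier is a number from 1 to 8 whose definition the sources do not give. Windows in which H3K9me3 was lost in the triple mutant in 2 replicates made up 99% of tier 1, 98.2% of tier 2, 50.9% of tier 3 and 0.928% of tier 4, and tiers 1 to 3 held 93.7% of them. Tier 8 held 13 windows, of which 12 carried the mark, and 0 of the 13 were members.

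GRTS windows lay mostly in low tiers, and the tiers rose with distance. Of the 191 GRTS windows, 20 were in tier 1, 62 in tier 2, 68 in tier 3, 32 in tier 4 and 9 in tier 5, so 78.5% lay in tiers 1 to 3 against 5.04% of all windows. The share was 58.4% of flanks at 1 kb, 45.9% at 2 kb, 35.2% of windows at 3 kb, 19.7% at 5 kb and 14.2% at 10 kb, and 4.6% beyond 10 kb. At 10 kb the share of low-tier windows was thus still above the genome. From 6 to 10 kb the interval of the summed ratio of hrde-1 to WT held 1, and beyond 10 kb that ratio was 0.983 (0.98 to 0.986). The share of windows called higher in hrde-1 was still 1.65% to 3.33% from 6 to 10 kb, against 0.519% beyond.

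**Figure D5:**
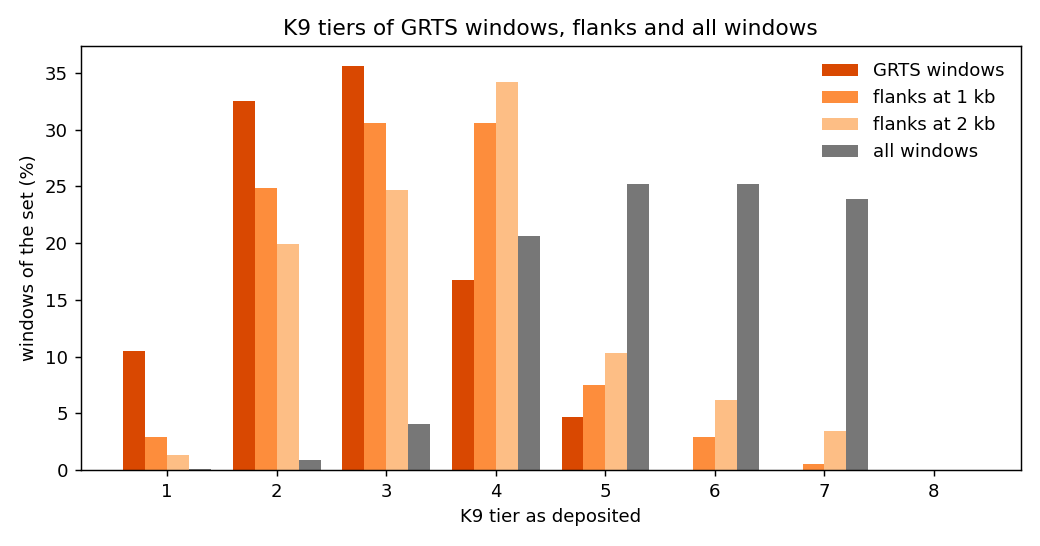
Percentage of GRTS windows, flanks at 1 kb, flanks at 2 kb and all windows in each K9 tier. GRTS windows lay in tiers 1 to 5, with 78.5% in tiers 1 to 3, while 5.04% of all windows lay in those tiers.

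Loss marks followed the same order. In the triple mutant, H3K9me3 loss was marked at 135 GRTS windows (70.7%) and 143 flanks (44.8%), against 3.24% of all windows. In met-2 set-25 it was marked at 122 GRTS windows and 129 flanks, and in set-32 at 88 and 81. All 3 marks were set at 87 GRTS windows and 74 flanks, or 45.5% and 23.2%, against 0.699% of all windows. GRH held 25 GRTS windows and 23 flanks. With GRH included, 75.4% of GRTS windows and 48.3% of flanks carried a mark of some kind, against 3.58% of all windows.

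Within the flanks, the difference between hrde-1 and WT went with the tier. The median ratio was 2.32 in 7 flanks of tier 1, 2.46 in 72 of tier 2, 1.86 in 89 of tier 3, 1.92 in 103 of tier 4, 1.41 in 28 of tier 5, 1.18 in 14 of tier 6 and 0.821 in 6 of tier 7. By the call rule, 49 of 168 flanks of tiers 1 to 3 were higher (29.2%), and 19 of 151 flanks of tiers 4 to 7 (12.6%). These classes were not matched in distance or level, with WT medians of 5.61 and 1.39 RPKM, and the call rule depends on level. Over the genome the shares were 5.51% in tiers 1 to 3 and 0.496% in tiers 4 to 7. Beyond 10 kb from a GRTS window, 88 of 4523 windows of tiers 1 to 3 were called higher (1.95%), with a median ratio of 1. GRH windows held more calls there, with 25 of 139 beyond 10 kb (18%), and 34 of 167 unlisted GRH windows beyond 2 kb (20.4%), with a median ratio of 1.19 in either set. Beyond 10 kb the WT median was 15.5 RPKM at GRH windows and 1.14 in tiers 1 to 3. Among windows above 5 RPKM in WT, the shares called there were 19.7% and 5.93%. Of the 68 flanks called higher, 45 carried a loss mark of the triple mutant, 6 were GRH loci, and 19 carried no mark and stood in no list.

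The HMT mutants were compared with the same WT library as hrde-1, and as deposited their median levels were below WT at GRTS windows and flanks. In met-2 set-25 the median over GRTS windows was 3.73 RPKM against 5.75 in WT, and over flanks 1.49 against 3.01. The median ratio to WT was 0.71 at GRTS windows and 0.784 at flanks, against 1 over all windows. The library was below WT at 141 of 191 GRTS windows (73.8%) and 202 of 319 flanks (63.3%), against 35.7% of all windows. The summed ratio was 0.662 (0.61 to 0.717) at GRTS windows, 0.791 (0.742 to 0.842) at flanks and 1 beyond 10 kb. By the call rule, 2 GRTS windows and 3 flanks were higher, where 1.19% of all windows were, and 15 GRTS windows and 8 flanks were lower, where 1.26% of all windows were.

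The ratio was also below that of all windows above the common floor in WT, where the sets were not matched in level. A floor in WT picks windows by the denominator of the ratio, which by itself lowers it, and by how much in each set was not tested. With the floor of 5 RPKM on the mean of both libraries, the median ratio was 0.711 at GRTS windows and 0.768 at flanks. Among windows above 5 RPKM in WT, the median ratio of met-2 set-25 to WT was 0.618 at GRTS windows and 0.683 at flanks, against 0.921 over all windows. Windows with a loss mark of the triple mutant beyond 10 kb from GRTS had 0.822 above the same WT floor (1070 windows). Among the called windows, the lowest ratios were at chrV:5183001-5184000, from 60.2 to 5.97 RPKM, at chrII:5098001-5099000, from 35.6 to 4.48 RPKM, and at chrV:8830001-8831000, from 23.3 to 4.48 RPKM. The called-higher windows were chrII:2519001-2520000, with 15.5 RPKM for WT, 130 for hrde-1, 35.8 for met-2 set-25 and 43.2 for the triple mutant, and chrV:16102001-16103000, with 11.9 in WT, 25.4 in met-2 set-25 and 22.1 in hrde-1. Their ratios were 2.31 (1.19 to 4.58) and 2.14 (0.979 to 4.79).

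With met-2 set-25 in place of WT as the control, the ratio of hrde-1 was larger. These libraries are of one set and of similar depth. The median ratio was 7.69 at GRTS windows and 2.43 at flanks, and 133 GRTS windows and 82 flanks were called higher, where 1.1% of all windows were. None of the members was called lower, where 1.57% of all windows were.

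In set-32 the members depended on the scaling. As deposited, the median was 5.09 RPKM at GRTS windows and 2.7 at flanks, and the median ratio to WT was 0.985 and 0.986. By the call rule, 9 GRTS windows and 3 flanks were higher, where 0.402% of all windows were, and 1 GRTS window and 5 flanks were lower, where 4.27% of all windows were. After rescaling, the median ratio was 1.25 at GRTS windows and 1 at flanks, with 24 GRTS windows and 15 flanks higher (1.73% of all windows) and 0 and 1 lower (1.54% of all windows). Among the called windows, those with the largest ratio were chrIV:13637001-13638000, with 4.1 RPKM in WT, 21.6 in set-32 and 17.7 in hrde-1, chrV:5754001-5755000, with 6.62 in WT, 25.2 in set-32 and 43 in hrde-1, and chrV:20297001-20298000, with 5.47 in WT, 20.7 in set-32 and 96.5 in hrde-1. At 20 RPKM a window of the set-32 library held 11.1 reads. The window called lower was chrI:4456001-4457000, with 20.1 RPKM in WT and 7.49 in set-32.

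The triple mutant had the fewest reads, and 20 RPKM in it was 6.48 reads. As deposited, the median was 3.09 RPKM at GRTS windows and 1.03 at flanks, and the median ratio to WT was 0.618 and 0.631, against 0.886 over all windows. By the call rule, 2 GRTS windows and 3 flanks were higher, where 0.681% of all windows were, and 13 GRTS windows and 16 flanks were lower, where 8.06% of all windows were. After rescaling, the ratios were 1 and 0.926, with 9 GRTS windows and 13 flanks higher (3.67% of all windows) and 8 and 9 lower (3.45% of all windows). The windows chrV:5184001-5185000 and chrV:5185001-5186000 had 26.4 and 29.2 RPKM in WT and 0 in the triple mutant, where the limit of 3 reads is 9.26 RPKM. The windows called higher were chrII:2519001-2520000, given above, and chrI:237001-238000, with 9.2 RPKM in WT and 24.7 in the triple mutant, a ratio of 2.68 (0.929 to 7.62).

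The triple mutant and set-32 are of one library set, so their comparison lies within that set. At GRTS windows the median ratio of the triple mutant to set-32 was 0.64 and the summed ratio was 0.569 (0.504 to 0.64). The triple mutant was lower at 126 of 191 windows (66%), against 38.5% of all windows. Rescaled, these ratios were 0.758 and 0.693 (0.614 to 0.78). At flanks the median ratio was 0.871 as deposited and 1 rescaled. By the call rule, 3 GRTS windows and 3 flanks were higher, where 0.745% of all windows were, and 23 GRTS windows and 18 flanks were lower, where 2.51% of all windows were. Rescaled, 5 and 7 were higher (1.74% of all windows) and 19 and 15 lower (1.67% of all windows). For windows above 5 RPKM in WT, not matched in level, the median ratio as deposited was 0.613 at GRTS windows and 0.625 at flanks, against 0.781 over all windows. Without chromosome V the median at GRTS windows was 0.835, and on that chromosome it was 0.433. It was 0.418 at the 10 windows of chromosome III, and 0.815, 0.918 and 0.852 on chromosomes I, II and IV. The windows of chromosome V include the pair of long runs with nearly equal values, whose reads were split among places.

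Repeated sequence bears on these values. Only 81 of 191 GRTS windows and 136 of 319 flanks (42.4% and 42.6%) had whole reads in all 5 libraries, against 80.1% of all windows. A value of 0 counted as whole, so these shares also depend on level. In WT, 6.81% of GRTS windows and 16.9% of flanks were at 0, against 30.3% of all windows. Where they had, the median ratio of hrde-1 to WT was 5.23 at GRTS windows and 2.38 at flanks, with 50 and 25 windows called higher (61.7% and 18.4%), against 0.559% of all windows with whole reads. The median at GRTS windows was 2.84 on chromosome I, 3.59 on II, 3.5 on III, 6.16 on IV and 6.11 on V, and at flanks it lay between 1.74 and 2.05 on all 5 autosomes. Chromosome V held 64 of the 128 GRTS windows called higher and 35 of the 68 flanks, where it held 44% of all GRTS windows and 37% of all flanks. The calls were 76.2% of its 84 GRTS windows and 29.7% of its 118 flanks, against 1.06% of all its windows.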

How the data were processed

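The authors aligned the reads to ce6 with Bowtie 0.12.7, kept perfect matches, split a read matching several places among them, and deposited RPKM per 1 kb window (1 library a strain). The deposited K9 tier, a score from 1 to 8, and the list and loss marks were used as given. Which strain code of the loss marks is met-2 set-25 and which the triple mutant was inferred from the order in which the study names them. No other column of per-sample values was present. Library codes were matched to strains through the study's list of libraries. Coordinates are 1-based. Ratios were taken after adding 1 RPKM. Read numbers came from the steps of the RPKM values, which were whole within 0.02 reads for 78.8% to 80.6% of values, and gave exact Clopper-Pearson intervals. A change was called at a ratio of at least 2 with the larger value at 20 RPKM or more. Rescaling used windows in no list and without a loss mark whose mean over the 5 libraries reached 5 RPKM. The computation (Python 3.11.15, numpy 2.4.6, pandas 2.3.3, scipy 1.17.1) was tested on simulated data. Other pseudocounts, thresholds, scalings and sets of windows were tried as alternatives. Members and lists were chosen with earlier results of these data known. Named windows are the 8 longest runs, the 5 runs and 10 called flanks highest in hrde-1, the members below WT, and the called extremes of each HMT mutant. Stretches and their windows were chosen after their values were seen. Sequences are not shown, as a genome of ce6 was not used here.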

Additional observations from a re-analysis of the deposited data

How the results depend on the processing

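Each genotype had 1 library, and leaving out a replicate was not run. No paired analysis was possible because no group had a replicate number to share. Over 16 results and 124 alternatives, 71 values stayed close to the reported one and 53 moved, and the cause was not tested. A median ratio was taken as moved where it shifted by more than the counting error of the summed ratio, and a count where it changed by more than 1.5 times. A count on a smaller set of windows could pass that limit through the size of the set alone. At 20 RPKM a window held between 6.48 and 21.9 reads, so differences at single windows of low level were not detectable at this depth. Leaving out chromosome V and using met-2 set-25 as the control were chosen after seeing the data.

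For hrde-1 to WT, the median at GRTS windows (4.76) was 5.69 and 3.36 with 0.1 and 5 RPKM added, 5.24 where the mean reached 5 RPKM, 5.19 rescaled on unlisted windows, 5.23 for windows of whole reads, 3.85 with 1 value per run, 3.91 without chromosome V and 7.69 with met-2 set-25 as the control. At flanks (1.95) it was 2.29, 1.46, 2.53, 2.07 and 2.38 under the first 5 of these, 2.27 for flanks at 1 kb, 1.84 without gaps, 1.63 without flanks in GRH or with a loss mark, and 2.43 with the other control. The 128 calls at 191 GRTS windows (67%) became 50 of 81 (61.7%) for whole reads and 64 of 107 without chromosome V. The 68 calls at 319 flanks (21.3%) became 25 of 136 (18.4%) and 33 of 201 likewise. They became 109 at 10 RPKM, 31 at a ratio of 4, 45 of 258 (17.4%) without gaps and 19 of 165 without marks. Over all windows 0.749% were called, and 0.559% of those with whole reads. Counts given with a smaller set fell partly because that set held fewer windows. The flank to target ratio (0.63) was 0.685 at 1 kb, 0.508 without gaps, 0.353 without marks and 0.586 without chromosome V.

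For set-32, the GRTS median (0.985) was 1.25 rescaled on unlisted windows, 1.15 rescaled without rRNA, both on the other side of the WT level, and 0.895 without GRH, and the flank median (0.986) was 0.877 at a mean of 5 RPKM or more. For met-2 set-25, the GRTS median (0.71) was 0.83 with 5 RPKM added, and the flank median (0.784) was 0.707 and 0.889 with 0.1 and 5 RPKM added, 0.898 for whole reads and 0.916 without marks. For the triple mutant, the GRTS median (0.618) was 0.768 with 5 RPKM added, 0.693 at a mean of 5 RPKM or more, 1 and 0.888 under the rescalings and 0.782 without chromosome V. Its flank median (0.631) was 0.516 and 0.846 with 0.1 and 5 RPKM added, 0.926 and 0.82 under the rescalings, 0.787 for whole reads and 0.769 without marks. The ratio of the triple mutant to set-32 at GRTS windows (0.64) was 0.789 with 5 RPKM added, 0.538 at a mean of 5 RPKM or more, 0.758 rescaled and 0.835 without chromosome V.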
